A study of Mus musculus with 4 samples.

Results

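The 7 genes described here encode TCF-1 (Tcf7), LEF-1 (Lef1), beta-catenin (Ctnnb1), the zinc finger factor Bcl11b, the chromatin organiser Satb1, the Runt domain factor Runx1 and the Groucho corepressor Tle3. They were chosen by symbol, as TCF/LEF factors and partners that natural killer (NK) cells share with T cells, and all 7 were among the 21025 genes of the deposited files. The libraries belong to a study of Nfil3 in NK cell development. Liver mononuclear cells of C57BL/6 mice were sorted for cells with NK1.1 and NKp46 but no T-cell receptor beta chain, and these were split into 2 subsets, each with 2 polyA RNA-seq libraries. TRAIL+ cells displayed the death ligand TRAIL and lacked CD49b, and CD49b+ cells displayed the integrin CD49b and lacked TRAIL. The labels name no genetic change or treatment for either subset, and give neither the age of the mice nor whether mice were pooled or the replicates came from separate mice. The p-values below rest on the spread between libraries of a subset, and that spread may be technical.

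TCF-1 and LEF-1 are DNA-binding proteins of one family. When Wnt signals stabilise beta-catenin it binds their N-terminal part and activates target genes, and without it Groucho (TLE) corepressors can bind the same factors and keep targets silent. In T cells TCF-1 and Bcl11b act in T-lineage commitment, Satb1 folds chromatin at thymocyte gene loci, and Runx factors with their partner Cbfb act in CD4 and CD8 lineage choice. In NK cells of the mouse, TCF-1 is known to act in NK cell development and in the acquisition of the Ly49A receptor.

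TCF-1 and LEF-1 are close copies in their DNA-binding HMG box, so a count of one could in principle hold reads of the other. The stretch of 180 bases in which the coding sequences of 1 GENCODE M21 transcript of each gene (build GRCm38, Tcf7 on chromosome 11, Lef1 on chromosome 3) were most alike without gaps had 147 identical bases (81.7%), and it is printed to show how far apart the transcripts are even there. Capitals mark the 33 bases that differ. The longest run without a difference anywhere in the coding sequences, of 909 bases in Tcf7 and 1191 in Lef1, was 17 bases.
Tcf7 coding bases 592 to 771: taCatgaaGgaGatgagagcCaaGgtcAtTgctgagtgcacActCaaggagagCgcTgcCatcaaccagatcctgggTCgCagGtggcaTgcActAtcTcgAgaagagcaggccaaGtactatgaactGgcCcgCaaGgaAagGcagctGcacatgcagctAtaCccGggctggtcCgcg
Lef1 coding bases 919 to 1098: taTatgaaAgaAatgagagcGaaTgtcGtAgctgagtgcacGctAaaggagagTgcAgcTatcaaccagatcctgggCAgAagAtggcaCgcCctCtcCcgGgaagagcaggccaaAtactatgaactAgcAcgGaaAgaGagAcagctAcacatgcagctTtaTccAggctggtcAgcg

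Lef1 and Bcl11b differed in opposite directions between the subsets, and their promoter windows (RefSeq, build GRCm38.p6, 250 bases before to 50 after the most upstream start listed) are printed for that reason. Capitals mark a TCF motif, searched as CTTTGAA and CTTTGAT on both strands. Bcl11b held 1 match, CTTTGAA on its own strand at position -89 from the start, and Lef1 held 0. Of all 27025 promoter windows of this length 8.79% held at least 1, as did 6.06% of those of 8068 tested genes. The other 5 genes held 0. Only the most upstream start of a gene was searched, although Lef1 has 4 listed windows, Satb1 5, and Tcf7, Ctnnb1 and Runx1 2 each. A Runt motif, TGTGGT on either strand and with no overlap with the TCF motifs, was found 2 times in the window of Runx1. It was in no other of the 7, against 16.9% of all windows and 12.7% of those of tested genes. The Bcl11b window had a GC content of 43.0% and that of Lef1 67.3%, beside a median of 61% over the windows of 8068 tested genes. A match is a description of the letters and not of binding.
Bcl11b promoter window, chr12:108003365-108003664, minus strand: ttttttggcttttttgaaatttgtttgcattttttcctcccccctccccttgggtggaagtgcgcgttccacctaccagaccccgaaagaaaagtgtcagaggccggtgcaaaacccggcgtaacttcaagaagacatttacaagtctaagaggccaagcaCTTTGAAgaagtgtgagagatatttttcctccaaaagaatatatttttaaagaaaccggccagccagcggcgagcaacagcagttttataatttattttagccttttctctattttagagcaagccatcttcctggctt
Lef1 promoter window, chr3:131110047-131110346, plus strand: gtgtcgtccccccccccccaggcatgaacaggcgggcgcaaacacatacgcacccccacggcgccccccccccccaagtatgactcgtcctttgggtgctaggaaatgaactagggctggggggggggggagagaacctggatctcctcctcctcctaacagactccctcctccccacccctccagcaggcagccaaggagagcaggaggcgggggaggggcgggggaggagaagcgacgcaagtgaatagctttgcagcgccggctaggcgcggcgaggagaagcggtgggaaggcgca

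The libraries held 3786497 to 4232967 reads behind the RPKM values (reads set relative to the length of the gene and the total of the library). For a length of 2000 bases, 1 RPKM was 7.57 to 8.47 reads. The genes of the sort gates followed the labels: Tnfsf10 (TRAIL) stood at 189 to 208 RPKM in TRAIL+ cells and 6.94 to 7.26 RPKM in CD49b+ cells, Itga2 (CD49b) at 1.55 to 5.26 RPKM in TRAIL+ cells and 37.0 to 52.1 RPKM in CD49b+ cells, and Klrb1c (NK1.1) and Ncr1 (NKp46) at 901 to 1253 RPKM in all 4 libraries. One difference between replicates touches the longer genes below. In the 1710 tested genes over 5000 bases, the median difference of replicate 2 minus replicate 1 on the log2(RPKM + 1) scale was -0.42 in TRAIL+ cells and -0.14 in CD49b+ cells. In the 3074 genes under 2000 bases it was 0.33 in TRAIL+ cells and 0.14 in CD49b+ cells. The median TRAIL+ minus CD49b+ difference was -0.09 in the long genes and 0.06 in the short ones.

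TRAIL+ cells held less Tcf7, Lef1 and Satb1 mRNA than CD49b+ cells and more Bcl11b, whereas Ctnnb1, Tle3 and Runx1 did not pass the test. Genes with an RPKM of at least 1 in at least 2 libraries were tested with limma on log2(RPKM + 1), and a gene was called changed when its p-value, adjusted over all 10047 tested genes, was under 0.05. All 7 genes could be tested. Of them 3 fell and 1 rose in TRAIL+ cells, where 8.62% of all tested genes were called, 3.86% as lower and 4.76% as higher. Fewer genes passed without a CD49b+ library (245 higher and 198 lower without replicate 1, 256 and 211 without replicate 2) and more without TRAIL+ replicate 1 (777 and 763). The libraries of the subsets did not overlap in 6 of the 7 genes, the exception being Ctnnb1, and in 46.8% of all tested genes. A fit with 1 library left out takes its spread only from the subset that keeps 2 libraries. Its p-values assume that both subsets vary alike. With 2 libraries against 2, the smallest p-value an exact permutation test can give is 0.333, so single genes were not tested that way. In bulk RNA, fewer cells that express a gene and less of its RNA per cell cannot be told apart.

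**Figure D1:**
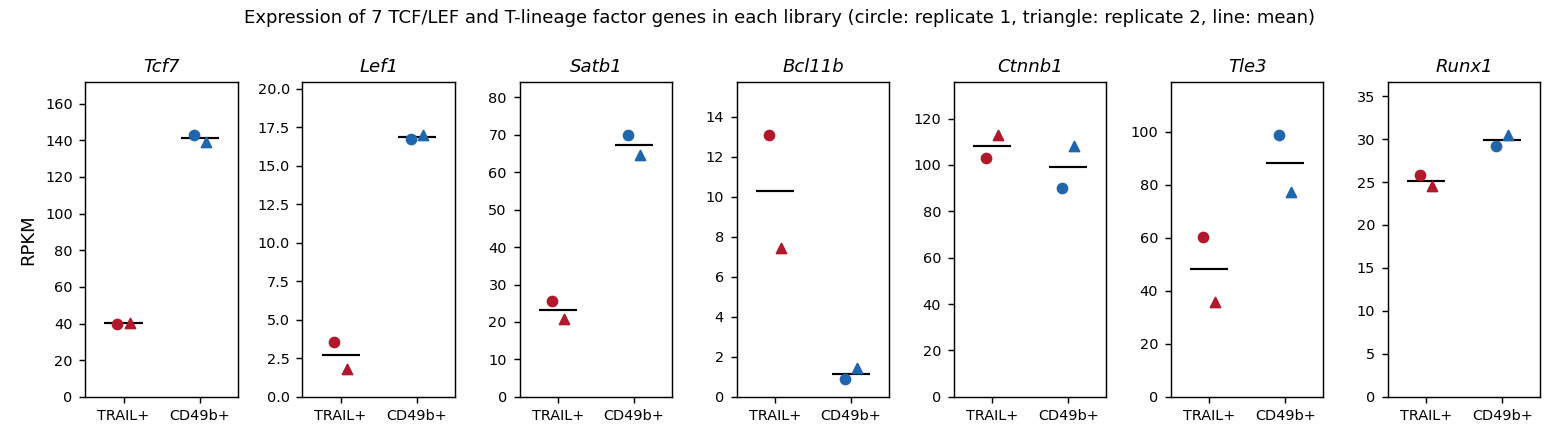
RPKM of the 7 genes in each library, TRAIL+ on the left and CD49b+ on the right of each panel, with a line at the mean of 2 libraries. The panels have their own vertical axes, all starting at 0. Tcf7, Lef1 and Satb1 lie lower in both TRAIL+ libraries, Bcl11b lies higher in both, and the Ctnnb1 libraries overlap.

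Tcf7, the most abundant TCF/LEF gene in these cells, stood at 39.8 and 40.3 RPKM in TRAIL+ replicates 1 and 2, against 143 and 139 RPKM in CD49b+ replicates 1 and 2. The replicates of each subset lay close together and the subsets were far apart. The level in TRAIL+ cells was 3.52-fold lower (log2 fold change -1.79 ± 0.15, SE, limma adjusted p = 0.00248, n = 2 per group). The values rested on 703 reads in the TRAIL+ libraries and 2574 in the CD49b+ libraries. Leaving out any 1 library kept the log2 fold change between -1.81 and -1.77, and adjusted p was at most 0.0231. TCF-1 is made in long forms that bind beta-catenin and short forms that do not, and the single Tcf7 value does not separate them.

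Lef1, the close relative of Tcf7, was lower in both TRAIL+ libraries by a larger ratio but at a far lower level. Its values were 3.58 and 1.82 RPKM in TRAIL+ cells and 16.7 and 17.0 RPKM in CD49b+ cells, a 6.25-fold difference. The log2 fold change was -2.31 ± 0.28 (SE, limma adjusted p = 0.00788). Reads were 36 and 17 in the TRAIL+ libraries, against 175 and 165 in the CD49b+ libraries, and counting error alone gave the 6.17-fold ratio of reads an exact 95% interval of 4.61 to 8.41. TRAIL+ replicate 2 was the lower TRAIL+ library, and the log2 fold change lay between -2.66 and -1.96 with single libraries left out, always past the threshold.

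Within the TCF/LEF family Tcf7 made up 91.3% and 95.1% of the summed RPKM in TRAIL+ libraries and 89.4% and 88.7% in CD49b+ libraries. Lef1 made up 8.22% and 4.29% in TRAIL+ libraries and 10.5% and 10.8% in CD49b+ libraries. The other 2 family members, Tcf7l1 and Tcf7l2, were at 0.727 RPKM or less in every library and were not tested. The family sum was 43.6 and 42.4 RPKM in TRAIL+ cells and 160 and 157 RPKM in CD49b+ cells. Tcf7 was thus the main TCF/LEF transcript in both subsets.

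Satb1 ties distant chromatin regions together in thymocytes. It stood at 25.7 and 20.7 RPKM in TRAIL+ cells and at 70.0 and 64.5 RPKM in CD49b+ cells, 2.90-fold lower in TRAIL+ cells (log2 fold change -1.50 ± 0.18, SE, limma adjusted p = 0.00732). Both TRAIL+ libraries lay below both CD49b+ libraries. It missed the threshold when CD49b+ replicate 1 was left out (adjusted p = 0.0615, log2 fold change -1.44), and passed it without any other single library. At 6801 bases Satb1 too is one of the long genes, and replicate 2 was the lower one in each subset. With the trend with gene length removed, a setting chosen after seeing the data, its log2 fold change was -1.42 ± 0.13 (SE, limma adjusted p = 0.00137).

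Bcl11b went against these 3 genes. It stood at 13.1 and 7.43 RPKM in TRAIL+ cells, against 0.894 and 1.44 RPKM in CD49b+ cells, 8.79-fold higher in TRAIL+ cells. Its log2 fold change was 2.34 ± 0.32 (SE, limma adjusted p = 0.0113), and it kept its call without any 1 library (1.97 to 2.71). The CD49b+ level was low but above the counting floor, with 30 and 45 reads, against 423 and 223 reads in the TRAIL+ libraries. With 7927 bases Bcl11b is among the long genes in which TRAIL+ replicate 2 lay lower. After the trend with gene length was removed from each library, its log2 fold change was 2.44 ± 0.26 (SE, limma adjusted p = 0.00248). That setting was chosen after seeing the data, and how much of the spread came from gene length was not tested. Bcl11a, its paralog known from B cells and fetal haemoglobin control, was at 0.408 RPKM or less in every library. Per library there were 3.04 and 5.43 RPKM of Tcf7 for each RPKM of Bcl11b in TRAIL+ libraries, and 160 and 96.5 in CD49b+ libraries.

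All of Tcf7, Lef1, Bcl11b and Satb1 are also expressed in T cells, so markers of T cells are given beside them. Of 14 T-cell markers 9 were tested. Of these 6 rose in TRAIL+ cells (Cd3g, Cd8a, Cd3e, Trat1, Cd3d and Cd4), 1 fell (Cd28) and 2 did not pass. Over all tested genes 4.76% were called higher and 3.86% lower. The calls of Cd3d, Cd4, Cd28 and Trat1 each fell away without at least 1 CD49b+ library (limma adjusted p up to 0.145), and those of Cd3g, Cd3e and Cd8a stood without any 1 library. The summed RPKM of the list was 951 and 1285 in TRAIL+ libraries and 85.5 and 94.6 in CD49b+ libraries, most of it from Cd3g, at 812 and 1060 RPKM in TRAIL+ libraries. The 6 markers taken as defining (Cd4, Cd8a, Cd8b1, Cd5, Cd6 and Themis) summed to 16.1 and 22.3 RPKM in TRAIL+ libraries, and to 3.17 and 0.633 RPKM in CD49b+ libraries, and none of the 14 was at 0 in all libraries. Cd8a made up most of the TRAIL+ sums and little of the CD49b+ sums, at 10.6 and 17.9 RPKM in TRAIL+ cells and 0.226 and 0 RPKM in CD49b+ cells. It had 347 reads in TRAIL+ libraries against 3 in CD49b+ libraries, a 120-fold ratio whose exact 95% interval for counting error runs between 40.8 and 586. The ratio of mean RPKM without CD49b+ replicate 2 was 62.9, and CD49b+ replicate 2 on its own had 0 reads. Cd8b1, which pairs with it in conventional CD8 T cells, stood at 0 and 0.186 RPKM in TRAIL+ libraries and 1.16 and 0.179 RPKM in CD49b+ libraries. Cd5, Cd6 and Themis were at 0.725 RPKM or less in every library. Bcl11b moved in the same direction as the 6 markers that rose, and Tcf7, Lef1 and Satb1 in that of Cd28, the 1 that fell. The part of T cells in these differences was not tested.

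Bcl11b also marks group 2 innate lymphoid cells (ILC2). The 4 genes taken to define them, Il1rl1, Il17rb, Il5 and Il13, summed to at most 0.159 RPKM in any library, with Il5 and Il13 at 0. Of the markers of ILC3, Il23r, Il22, Il17a and Il17f had 0 reads in all 4 libraries. Of the B-cell list 0 of 4 tested genes were called by limma, beside 8.62% of all tested genes. Of the 4, 1 (Cd79b) had an unadjusted limma p under 0.05 and 0 passed with voom. The share of all tested genes under that unadjusted level was not worked out. The B-cell list summed to 24.2 and 17.1 RPKM in TRAIL+ libraries and 25.6 and 13.4 RPKM in CD49b+ libraries. Hepatocyte markers summed to 104 and 102 RPKM in TRAIL+ libraries and 46.3 and 23.4 RPKM in CD49b+ libraries. Of 5 tested 1 (Trf) was higher, beside 4.76% of all tested genes. Trf made up most of these sums in TRAIL+ libraries, at 83.1 and 96.9 RPKM, against 21.2 and 22.1 RPKM in CD49b+ libraries. Alb followed the replicate number instead, at 12.7 and 1.92 RPKM in TRAIL+ libraries and 14.8 and 0.865 RPKM in CD49b+ libraries. The summed markers of Kupffer cells and monocytes did so too, at 95.2 and 15.6 RPKM in TRAIL+ libraries and 135 and 15.3 RPKM in CD49b+ libraries. Most of that sum was Lyz2, at 81.9 and 9.21 RPKM in TRAIL+ libraries and 122 and 8.87 RPKM in CD49b+ libraries. Not every marker followed the number: Clec4f was at 0.918 and 1.32 RPKM in TRAIL+ libraries and 0.196 and 0 RPKM in CD49b+ libraries. The part of these cell types in the results was not tested.

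Ctnnb1, the coactivator through which Wnt signals reach TCF-1, was abundant in both subsets. It stood at 103 and 113 RPKM in TRAIL+ cells and 90.0 and 108 RPKM in CD49b+ cells, and the libraries overlapped. The log2 fold change, 0.13 ± 0.17 (SE), had a 95% interval from -0.31 to 0.57 and did not pass (limma adjusted p = 0.803). There were 2.59 and 2.81 RPKM of Ctnnb1 for each RPKM of Tcf7 in TRAIL+ libraries and 0.630 and 0.779 in CD49b+ libraries. Jup, which encodes the related gamma-catenin, rose in TRAIL+ cells, at 28.9 and 21.2 RPKM, against 9.35 and 9.03 RPKM in CD49b+ cells. This difference (log2 fold change 1.34 ± 0.21, limma adjusted p = 0.0179) did not pass without CD49b+ replicate 1 (adjusted p = 0.108) and without CD49b+ replicate 2 (0.122).

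Tle3 encodes a full-length Groucho corepressor that binds TCF and Runx factors. It stood at 60.4 and 35.9 RPKM in TRAIL+ cells and 98.9 and 77.3 RPKM in CD49b+ cells. Both TRAIL+ libraries were lower, but the replicates of each subset lay apart and replicate 2 was the lower one in each. The log2 fold change of -0.90 ± 0.29, with a 95% interval of -1.61 to -0.18, did not pass over all genes (SE, limma adjusted p = 0.152). The log2 fold change was -1.26 without TRAIL+ replicate 1 and -0.53 without TRAIL+ replicate 2. Tle3 passed after the trend with gene length was removed from each library (-0.86, limma adjusted p = 0.0298), a setting chosen after seeing the data. The Tle3 transcript, at 5222 bases, is among the long genes in which replicate 2 lay lower.

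Other Groucho genes differed in their own ways. Tle5, named Aes in older annotation, encodes a short family member that lacks the repeats through which the longer ones recruit partners. It was by far the most abundant, at 673 and 740 RPKM in TRAIL+ cells and 327 and 343 RPKM in CD49b+ cells, and it rose in TRAIL+ cells (log2 fold change 1.07 ± 0.19, SE, limma adjusted p = 0.0259). It did not pass when CD49b+ replicate 1 (adjusted p = 0.524) or CD49b+ replicate 2 (0.416) was left out, nor with no minimum level (0.0505), although the log2 fold change stayed between 1.01 and 1.14 with single libraries left out. Tle5 was 88.1% and 92.0% of the summed TLE RPKM in TRAIL+ libraries and 72.1% and 76.1% in CD49b+ libraries, and Tle3 7.90% and 4.46% in TRAIL+ libraries and 21.8% and 17.2% in CD49b+ libraries. Tle4 stood at 27.8 and 26.4 RPKM in TRAIL+ cells and 25.1 and 28.9 RPKM in CD49b+ cells (log2 fold change 0.01 ± 0.17, 95% interval -0.41 to 0.42). Tle1 was at 0.616 and 0.542 RPKM in TRAIL+ cells and 2.15 and 1.22 RPKM in CD49b+ cells and did not pass (adjusted p = 0.210), and Tle6 was at 0.121 RPKM or less. Tle2 rose, at a very low level, with 2.22 and 1.62 RPKM in TRAIL+ cells and 0.341 and 0.0918 RPKM in CD49b+ cells. Its call (log2 fold change 1.26 ± 0.26, limma adjusted p = 0.0440) was lost without TRAIL+ replicate 1 (0.0536), CD49b+ replicate 1 (0.0923) or CD49b+ replicate 2 (0.173) and with a pseudocount of 0.1 (0.0660).

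**Figure D2:**
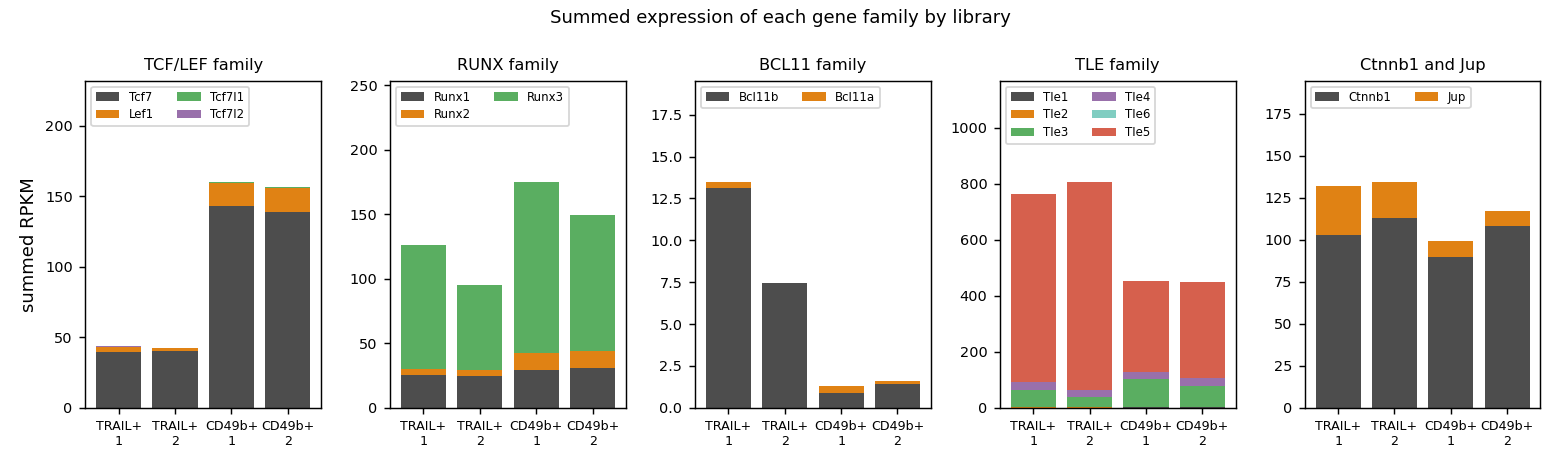
Summed RPKM of each gene family in each library, TRAIL+ libraries left of CD49b+ libraries, with 1 colour per gene and a vertical axis from 0 in each panel. The TCF/LEF sum is 43.6 and 42.4 RPKM in TRAIL+ libraries and 160 and 157 RPKM in CD49b+ libraries, and the TLE sum, mostly Tle5, is 764 and 804 RPKM in TRAIL+ libraries and 454 and 450 RPKM in CD49b+ libraries.

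Runx1 binds DNA as a partner of Cbfb and acts early in the blood and T-cell lineages. It stood at 25.8 and 24.5 RPKM in TRAIL+ cells and at 29.2 and 30.5 RPKM in CD49b+ cells. The libraries did not overlap, but the difference was small (log2 fold change -0.24 ± 0.16, SE, 95% interval -0.63 to 0.15, limma adjusted p = 0.516). Runx3, the family member best known from NK cells and CD8 T cells, was the most abundant Runx gene, at 95.5 and 65.4 RPKM in TRAIL+ cells and 132 and 105 RPKM in CD49b+ cells, and did not pass (-0.57 ± 0.24, adjusted p = 0.280). Runx2, outside the rule for the genes named and chosen after its value was seen, fell in TRAIL+ cells, at 4.67 and 5.10 RPKM, against 13.6 and 13.8 RPKM in CD49b+ cells (log2 fold change -1.32 ± 0.19, adjusted p = 0.0120). Leaving out CD49b+ replicate 1 (0.127) or CD49b+ replicate 2 (0.132) ended that call. Cbfb, the shared partner, stood at 135 and 140 RPKM in TRAIL+ cells and 145 and 143 RPKM in CD49b+ cells (-0.07 ± 0.15, adjusted p = 0.891).

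**Figure D3:**
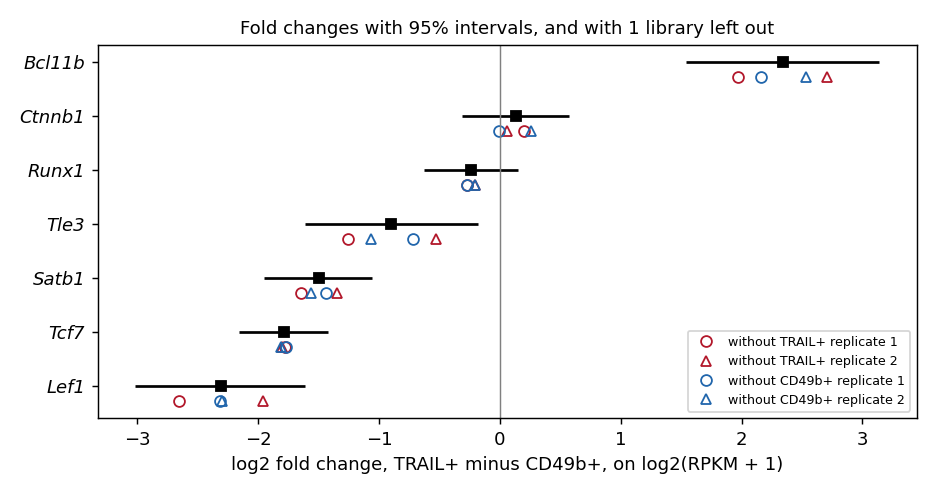
Log2 fold changes (TRAIL+ minus CD49b+) of the 7 genes on the log2(RPKM + 1) scale. Black squares with lines give the value and its 95% interval over 4 libraries, and open symbols the value with 1 library left out. Bcl11b lies at 2.34, Lef1, Tcf7 and Satb1 at -2.31, -1.79 and -1.50, and the Tle3 values spread most widely around -0.90 among the genes that did not pass.

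Beyond these genes, the Wnt pathway held single changed members. Of 42 listed pathway genes 15 were too low to test and 27 were tested, of which 4 rose (Lrp5, Jup, Tle2 and Tle5), 1 fell (Sox4) and 22 did not pass. The called share was 18.5%, beside 8.62% of all tested genes, and the median log2 fold change was -0.06, beside 0.00499 over all tested genes. Without CD49b+ replicate 1 or replicate 2 only Lrp5 stayed among those that rose, and without TRAIL+ replicate 1 there were 5 that fell. Lrp5, a Wnt coreceptor, stood at 10.8 and 4.88 RPKM in TRAIL+ cells, against 0.682 and 0.489 RPKM in CD49b+ cells (log2 fold change 2.39 ± 0.37, limma adjusted p = 0.0168). The fold of 13.4 was 8.33 without TRAIL+ replicate 1, and the call stood without any 1 library. Sox4, an HMG-box factor that acts in lymphocyte progenitors, had 1 read in the TRAIL+ libraries and 50 in the CD49b+ libraries (limma adjusted p = 0.0152). The ratio of reads was 48.1-fold lower in TRAIL+ cells, with an exact 95% counting interval of 8.25 to 1938. In mean RPKM the fold was 46.4 and, without TRAIL+ replicate 1, 23.2, and TRAIL+ replicate 1 on its own had 0 reads.

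Of 10 Frizzled receptor genes only Fzd5 reached the level for a test, at 11.8 and 9.13 RPKM in TRAIL+ cells and 21.2 and 17.6 RPKM in CD49b+ cells. It did not pass (log2 fold change -0.84, limma adjusted p = 0.0791), and the log2 fold change was -1.01 without TRAIL+ replicate 1. Genes of the beta-catenin destruction complex had log2 fold changes of 0.01 for Gsk3a, -0.15 for Gsk3b, 0.12 for Csnk1a1, -0.37 for Axin1 and -0.19 for Apc, and none of these 5 passed. These genes, Fzd5 included, were picked after their values were seen.

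Genes used elsewhere as Wnt targets were few at a testable level. Of 13 listed, 7 were tested and 0 were called by limma, and voom called 0 too. That number is too small to set apart from the 8.62% called over all tested genes. An unadjusted limma p under 0.05 was found for 5. The share of all tested genes under that level was not worked out, so this count has no background. The median log2 fold change of the 7 was 0.45, beside 0.00499 over all tested genes. Axin2, a feedback inhibitor and common Wnt reporter gene, stood at 5.29 and 2.54 RPKM in TRAIL+ cells and 1.05 and 1.19 RPKM in CD49b+ cells. The difference (log2 fold change 1.15 ± 0.33) did not pass over all genes (limma adjusted p = 0.113). It was 1.57 without TRAIL+ replicate 2 and 0.74 without TRAIL+ replicate 1. Znrf3, a membrane inhibitor of Wnt receptors, lay the other way, at 4.67 and 2.43 RPKM in TRAIL+ cells and 8.23 and 8.66 RPKM in CD49b+ cells. Its log2 fold change was -1.10 ± 0.29 (limma adjusted p = 0.0930), and -1.46 without TRAIL+ replicate 1. Of the remaining tested targets, Rnf43 (0.69), Ccnd2 (0.48), Cd44 (0.45) and Ccnd1 (0.37) lay on the side of Axin2. Myc (-0.11) lay on that of Znrf3, and none of these passed. Znrf3 and these genes were named after their values were seen.

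**Figure D4:**
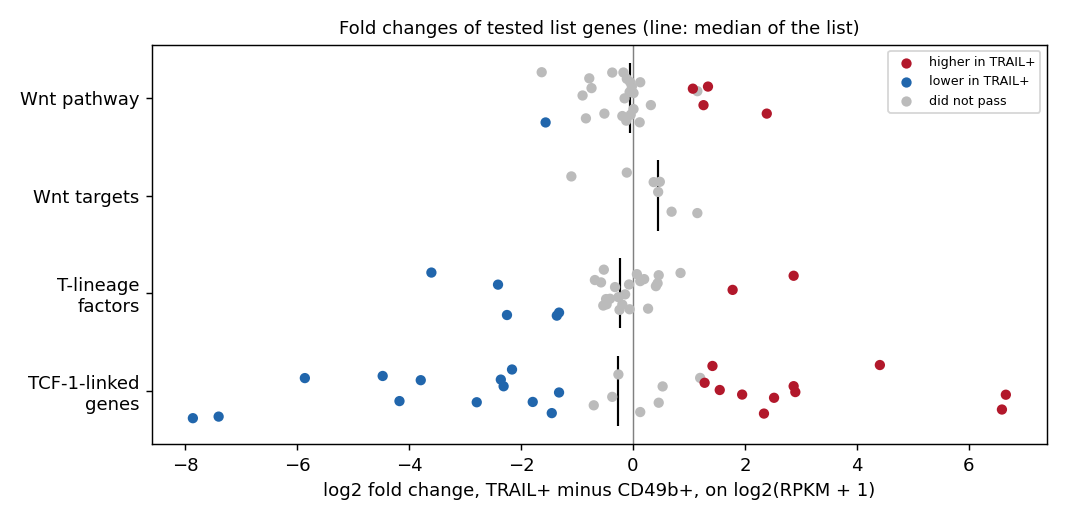
Log2 fold changes (TRAIL+ minus CD49b+, log2(RPKM + 1) scale) of the tested genes of 4 lists, 1 point per gene with random vertical scatter and a line at each median. Red points rose in TRAIL+ cells, blue points fell and grey points did not pass. The points of the Wnt lists are mostly grey, with medians of -0.06 and 0.45, and the other two lists have medians of -0.24 and -0.26.

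Of 38 further T-lineage factors 36 had a row and 29 were tested, of which 2 rose, 5 fell (Klf2, Hes1, Myb, Bach2 and Runx2) and 22 did not pass. The shares were 6.90% higher and 17.2% lower, beside 4.76% and 3.86% of all tested genes, and the median log2 fold change was -0.24. Those that fell numbered 9 without TRAIL+ replicate 1, 2 without CD49b+ replicate 1 and 3 without CD49b+ replicate 2. Tox, an HMG-box factor of T-cell and innate lymphoid development, rose to 90.4 and 73.5 RPKM in TRAIL+ cells, against 20.3 and 26.2 RPKM in CD49b+ cells (log2 fold change 1.78 ± 0.20, limma adjusted p = 0.00627). Id3, an inhibitor of E proteins, also rose, at 12.8 and 21.3 RPKM in TRAIL+ cells and 1.24 and 1.60 RPKM in CD49b+ cells (2.87 ± 0.29, adjusted p = 0.00441). Klf2, which controls lymphocyte exit into blood, fell as well, at 80.6 and 38.5 RPKM in TRAIL+ cells and 633 and 749 RPKM in CD49b+ cells (-3.60 ± 0.36, adjusted p = 0.00419). Its fold of 11.6 was 18.0 without TRAIL+ replicate 1.

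Myb, a factor of progenitors and of stem-like T cells, had 0 reads in both TRAIL+ libraries and 57 and 49 reads in the CD49b+ libraries (limma adjusted p = 0.00417). Set against 3 reads, taken as an upper limit for a count of 0 over both TRAIL+ libraries, Myb was 34-fold lower in TRAIL+ cells. That limit allows for counting error in the TRAIL+ libraries only. Hes1, a Notch target, fell at 4.73 and 1.27 RPKM in TRAIL+ cells, against 23.5 and 14.0 RPKM in CD49b+ cells, as did Bach2, a repressor that keeps T cells undifferentiated, at 2.78 and 1.66 RPKM in TRAIL+ cells, against 7.48 and 6.80 RPKM in CD49b+ cells (limma adjusted p = 0.0428 for Hes1 and 0.0316 for Bach2). The fold of Hes1, 6.26, was 14.8 without TRAIL+ replicate 1 and 3.97 without TRAIL+ replicate 2, and it did not pass without CD49b+ replicate 1 (limma adjusted p = 0.106), with voom (0.0508), with no minimum level (0.0924) and with a pseudocount of 0.1 (0.0628). The Bach2 call was lost without CD49b+ replicate 1 (0.183) or replicate 2 (0.122) and with no minimum level (0.0723). Gata3, at 34.7 and 30.8 RPKM in TRAIL+ cells and 30.4 and 29.2 RPKM in CD49b+ cells, and Ets1, at 369 and 325 RPKM in TRAIL+ cells and 347 and 378 RPKM in CD49b+ cells, did not pass. The recombinase gene Rag2 and the pre-T-cell receptor gene Ptcra, both used by lymphocyte progenitors, had 0 reads in all libraries.

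Genes linked to TCF-1 in lymphocytes split in both directions, with 11 of 31 tested higher in TRAIL+ cells, 13 lower and 7 not past the test (median log2 fold change -0.26). The shares were 35.5% higher and 41.9% lower, beside 4.76% and 3.86% of all tested genes. Without CD49b+ replicate 1 or replicate 2, 6 were higher. Lef1 and Bcl11b belong to this list too, and Cd3d, Cd3e, Cd3g, Cd28, Cd5, Cd6 and Ccr7 are also on the T-cell list. Klra1, which encodes Ly49A, stood at 2.18 and 4.79 RPKM in TRAIL+ cells and 54.8 and 62.1 RPKM in CD49b+ cells (log2 fold change -3.79 ± 0.31, limma adjusted p = 0.00248). Its fold of 16.8 was 26.8 without TRAIL+ replicate 2, and values of single Ly49 genes are uncertain because reads of such near-identical copies can be split between them. Among the largest falls of the list were those of Klra4, the T-box factor gene Eomes (1.98 and 2.70 RPKM in TRAIL+ cells, against 199 and 184 RPKM in CD49b+ cells, limma adjusted p = 0.000301) and the sphingosine phosphate receptor gene S1pr1 (1.22 and 0.872 RPKM in TRAIL+ cells, against 36.7 and 53.0 RPKM in CD49b+ cells, adjusted p = 0.000813). The granzyme gene Gzmc, Cd3g, Klra5 and Cd3e were among the genes that rose, Cd3e at 21.3 and 43.2 RPKM in TRAIL+ cells and 2.62 and 3.87 RPKM in CD49b+ cells, a fold of 9.92 that was 6.55 without TRAIL+ replicate 2.

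Genes with the pattern most like that of each called factor were taken by the smallest Euclidean distance between log2(RPKM + 1) values over the 4 libraries, each gene centred on its own mean. With 4 points this is a description only. The nearest to Tcf7 were the plexin gene Plxnc1 (distance 0.0903), the chromatin remodelling gene Smarcd3 (0.0948), the phosphofructokinase gene Pfkp (0.116) and the small nucleolar RNA Snord16a (0.134). Snord16a had 0 reads in the TRAIL+ libraries and 1 read in each CD49b+ library, too few to describe a pattern, and it did not pass with voom (adjusted p = 0.414). Near Lef1 were Gzmm (0.154), Aff3 (0.173), Septin5 (0.183) and Gramd4 (0.213). Ralgds (0.109), Adgrl1 (0.211), Rgs1 (0.293) and Aplp1 (0.360) lay nearest to Bcl11b, and Abcb1b (0.127), Acss2 (0.141) and Tgif1 (0.147) were among the nearest to Satb1. The scale shrinks changes of low genes, so a near gene can differ by a larger fold. Abcb1b differed 11.7-fold on 7 TRAIL+ reads (Satb1 2.90-fold), Aff3 21.1-fold on 12 (Lef1 6.25-fold) and Plxnc1 5.7-fold on 61 (Tcf7 3.52-fold). Others were close in fold too, such as Pfkp (3.31-fold), Gzmm (6.52-fold) and Acss2 (3.12-fold).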

How the data were processed

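The 4 libraries are polyA RNA of sorted mouse liver NK cells, grouped by their titles. The authors deposited RPKM, per the file headers. TopHat 1.4.1 and build mm9 are named, per the submitters' processing notes. How reads were counted, on which annotation and whether by strand is not given in the sources used here, and rows pool the isoforms of a gene. Names came from RefSeq genes of GRCm38.p6: accessions matched 20661 of 21025 rows, symbols 191 and synonyms 65, and 108 carry the deposited name.

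Read numbers were derived from the RPKM steps. Library totals are the common divisor of the low values, and for 100% of 13681 rows above 0 a length made all 4 libraries whole (relative tolerance 1e-06). Where a whole multiple of that length came within 10% of an annotated length, the nearest multiple was taken. The length used was within 10% of the annotated one in 81.1% of 10859 rows where a single accession gave one. As the multiple was chosen by that match, the share is not an independent check. Intervals on reads are exact 95% binomial ones and cover counting error only.

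Genes at 1 RPKM or more in at least 2 libraries were tested on log2(RPKM + 1), pseudocount 1, with limma 3.58.1 in R 4.3.3 (trended prior, 2 residual and 3.51 prior degrees of freedom, Benjamini-Hochberg over all genes, threshold 0.05). The scale understates changes of low genes. Folds are ratios of group mean RPKM. The fit was tested on simulated reads. Alternatives were the pseudocount, the minimum level, quantile normalization, a constant prior, the replicate number as a block, voom on whole reads, leaving out each library and, added after seeing the data, removal of the gene length trend. Besides the 7 genes, named list genes are 10 set by name and up to 4 called genes per list and direction, and genes with no reads; others were picked after their values were seen. Members and lists were chosen with earlier results of these data known. A few genes that met these rules are left out of the text.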

Additional observations from a re-analysis of the deposited data

How the results depend on the processing

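Of 91 values of the 7 genes under 13 alternatives, 86 kept their direction and their side of the threshold. The exceptions are Satb1 without CD49b+ replicate 1 (log2 fold change -1.44), Ctnnb1, which changed sign there (-0.0051), and Tle3, which passed without TRAIL+ replicate 1 (-1.26), with the replicate number as a block (-0.90) and after removal of the gene length trend (-0.86). With 1 library left out, log2 fold changes ranged from -1.65 to -1.35 for Satb1, -0.0051 to 0.26 for Ctnnb1 and -1.26 to -0.53 for Tle3; where that leaves a subset with 1 library, it is assumed to vary like the others. The cause of these shifts was not tested.

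Counts moved more. With 1 library left out, 245 to 777 genes were called higher and 198 to 763 lower, against 478 and 388 with all; voom on whole reads called 486 and 402. The Wnt pathway list then had 1 to 5 higher and 1 to 5 lower, the Wnt targets 0 to 2 higher and 0 to 1 lower, the T-lineage factors 2 to 9 lower and the genes linked to TCF-1 6 to 13 higher. Removal of the length trend gave 722 higher and 600 lower, 2 lower in the Wnt pathway, and 1 higher and 1 lower among Wnt targets. The minimum of 5 RPKM gave 2 higher and 0 lower in the Wnt pathway, and no minimum 3 lower T-lineage factors. The replicate block gave 1049 higher and 833 lower genes, 5 lower Wnt pathway genes, and 4 higher and 1 lower Wnt targets. The labels tie the replicate numbers to no shared batch, so no pairing is given by the design. As a hint from the data, deviations of same-numbered libraries from their group means correlated at 0.563. Alb and the summed Kupffer cell and monocyte markers, mostly Lyz2, also followed the number. Lef1 rested on 53 TRAIL+ reads, which limits its precision.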
